A study of Mus musculus with 6 samples.

Results

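Glycolysis enzymes were followed in adrenal glands of BPH mice, a hypertensive inbred strain whose name stands for Blood Pressure High, and of BPL mice, the hypotensive strain Blood Pressure Low. Total RNA of adrenal glands was hybridised to Affymetrix MG_U74Av2 arrays, 3 for BPH and 3 for BPL. Age, sex, treatment and the number of animals per array are not stated in the labels, so p-values measure the spread between these samples, which may be technical. The members were all probe sets annotated to exactly 1 gene of a list of 10 glycolytic enzyme genes. This gave 11 of the 12488 probe sets, for 8 of the 10 genes. Expression of Gpi1 and Eno1 was not analysed here, but their upstream sequences entered the sequence counts given below. Of the 11 probe sets 10 passed the filter on dim signal, among 7293 on the array, and entered the test. The other, 161313_at of Hk2, was under the floor on all 6 arrays, with intensities between 14.7 and 112.7 in BPH and between 49.5 and 154.3 in BPL. Median intensity per array lay between 1003.5 and 1114.7, and Pearson's r was 0.924 to 0.962 within a strain and 0.894 to 0.938 between strains.

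Glycolysis splits glucose into pyruvate in the cytosol and yields ATP and NADH, and lactate dehydrogenase turns pyruvate into lactate to restore NAD+. Hexokinases trap glucose in the cell, phosphofructokinase commits it to the pathway, and pyruvate kinase closes it. Several steps have isozymes made from separate genes, some of them typical of 1 tissue. In the adrenal gland, the cortex makes steroids with NADPH, much of which the pentose phosphate path can draw from glucose, and the medulla makes catecholamines.

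In the main fit, Hk2 was the member called between strains. Members that were not called may still differ. Of the 10 tested member probe sets 1 was called lower in BPH and 0 higher at an adjusted p under 0.05 in limma, where 0.96% of all tested probe sets were called lower and 1.56% higher, 2.52% in all. At an unadjusted p under 0.05 the members counted 5 lower and 1 higher, against 8.5% and 10.8% of all tested probe sets. Taking the brightest probe set of each gene, 6 of the 8 genes had a negative log2 difference, BPH minus BPL, as did 45.2% of the 5555 tested genes. Hk2 was the 1 gene of the 8 called, against 2.48% of all tested genes. The median was -0.51 over the 8 genes and 0.04 over all tested genes. Without the array BPL 2 the median of the 8 was -0.24.

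**Figure D1:**
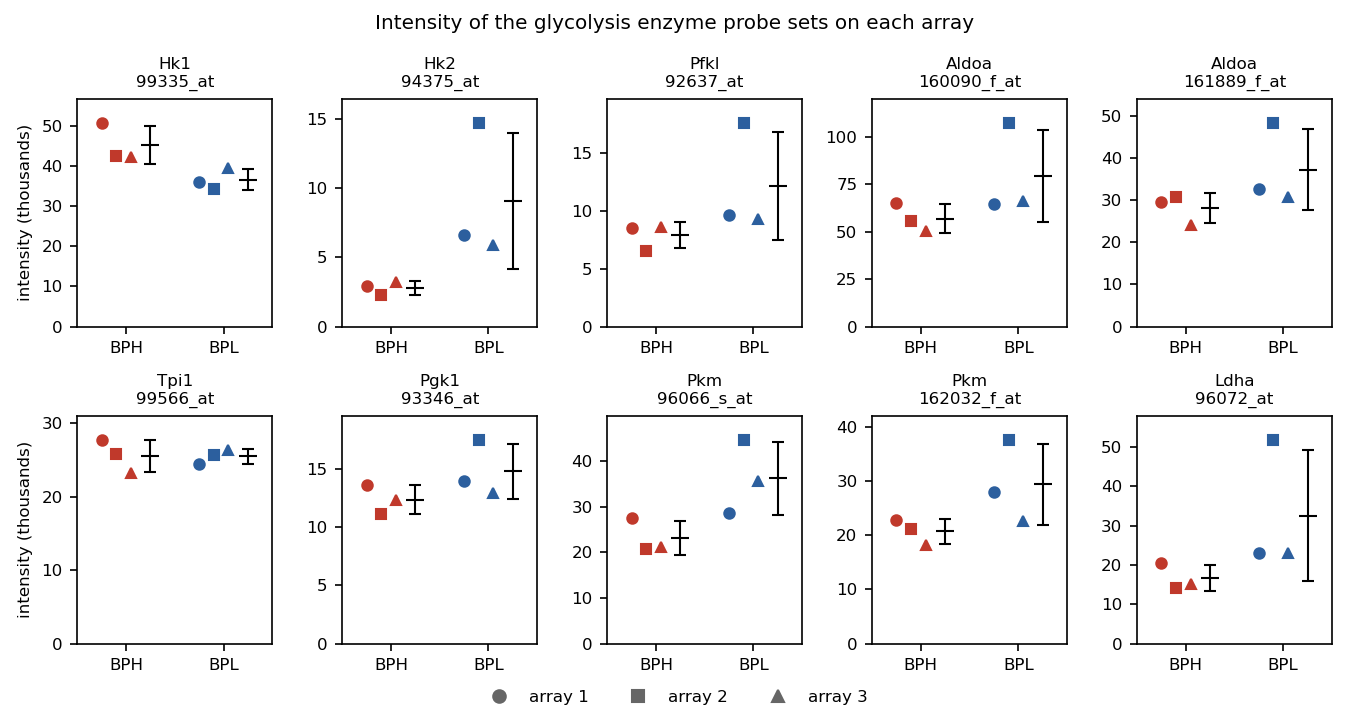
Deposited intensity divided by 1000 (linear axis from 0) of each tested member probe set, with BPH arrays in red and BPL arrays in blue, symbols for arrays 1 to 3, and black bars for the mean and SD of 3 arrays. BPL 2 is the highest array for 8 of the 10 probe sets, and the BPH arrays of Hk2 reach 3204.4 at most while those of BPL start at 5869.6.

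Both hexokinases of the list phosphorylate glucose. Hk1 is the housekeeping form of most tissues, while Hk2 is the insulin-responsive form known from muscle and fat. Hk2 (94375_at) had intensities of 2919.7, 2261.5 and 3204.4 on BPH 1, 2 and 3, against 6632.8, 14674.7 and 5869.6 on BPL 1, 2 and 3. The groups did not overlap, and the lowest BPL array stood above the highest BPH array. Hk2 averaged 2795 ± 483.6 in BPH and 9059 ± 4878 in BPL (SD, n = 3 each), a log2 difference of -1.58 (SE 0.32, 95% interval -2.30 to -0.87, limma adjusted p = 0.0376), or 3.00-fold lower in BPH. Without BPL 2 the difference was -1.17 (limma adjusted p = 0.0159).

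The Hk2 call depended on single arrays. Without BPH 1 the limma adjusted p was 0.106, without BPH 2 0.142, without BPH 3 0.116 and without BPL 1 0.069. BPH 1 and BPH 2 had been washed on fluidics station 2, and the other 4 arrays on station 1. Within station 1, where BPH 3 alone faced the 3 BPL arrays, the Hk2 difference was -1.37, and the station block rests on the same arrays and gives the same value. With 1 BPH array on that station, the lost call (limma adjusted p = 0.559) says nothing about stability, since the lone array is assumed to vary like the others.

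Hk1 (99335_at) had intensities of 50637.9, 42585.0 and 42315.2 on the BPH arrays, against 36078.2, 34199.5 and 39424.5 on the BPL arrays. All BPH arrays lay above all BPL arrays, a separation found in that direction for 14.9% of tested probe sets and 15.5% of tested genes. Its mean was 45179 ± 4729 in BPH and 36567 ± 2647 in BPL (SD, n = 3 each). The log2 difference of 0.30 (SE 0.13, 95% interval 0.01 to 0.59) did not pass the test (limma adjusted p = 0.24). It was positive under all 18 alternatives run. Without overlap no choice of arrays could turn the sign, and several other alternatives left the difference unchanged.

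The sequences upstream of the starts of Hk2, which was called, and of Hk1, which was not, are shown side by side, with the letters ACGTG in capitals on either strand (CACGT on the other). These letters are the core of one form of the hypoxia response element, bound by HIF-1, and are also part of the CACGTG E-box. The sequences are RefSeq windows of 250 bases on build GRCm38.p6, in the direction of transcription. The array does not show which start a transcript used.
Hk2 (chr6:82774455-82774704, minus strand): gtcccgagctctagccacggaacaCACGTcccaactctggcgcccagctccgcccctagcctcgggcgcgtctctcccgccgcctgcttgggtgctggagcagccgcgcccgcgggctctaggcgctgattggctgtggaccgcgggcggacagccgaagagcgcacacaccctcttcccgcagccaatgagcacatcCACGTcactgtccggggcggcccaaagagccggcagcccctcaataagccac
Hk1 upstream start (chr10:62379909-62380158, minus strand): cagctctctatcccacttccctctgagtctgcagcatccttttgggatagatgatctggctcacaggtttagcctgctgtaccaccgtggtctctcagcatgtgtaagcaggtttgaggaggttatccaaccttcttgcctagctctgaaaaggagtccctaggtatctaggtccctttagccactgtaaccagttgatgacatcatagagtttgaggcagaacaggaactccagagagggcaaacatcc
Hk1 downstream start (chr10:62340422-62340671, minus strand): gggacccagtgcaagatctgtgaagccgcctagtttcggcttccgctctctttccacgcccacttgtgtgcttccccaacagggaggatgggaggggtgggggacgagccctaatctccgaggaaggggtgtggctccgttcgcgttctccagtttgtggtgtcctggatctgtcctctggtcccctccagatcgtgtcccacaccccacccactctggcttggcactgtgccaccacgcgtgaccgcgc
The Hk2 window held 2 ACGTG sites, the nearer beginning 52 bases before the start, and both Hk1 windows held 0. The related form GCGTG occurred 3 times in the window of the downstream Hk1 start and 0 times in that of Hk2. Of those 3 matches, 2 overlap on opposite strands, whereas overlapping ACGTG matches were counted as a single site. Over all 32851 RefSeq windows of this length, 16.6% held ACGTG and 28.2% held GCGTG. A match describes letters in a window and no binding.

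The ratio of Hk2 to Hk1 was taken within each array, since a change of the ratio can be compared between strains even though probe sets cannot be compared in level. The log2 ratio averaged -4.03 ± 0.27 in BPH and -2.14 ± 0.81 in BPL (SD, n = 3 each). The difference was -1.89, with no overlap between strains, and two-sided exact permutation gave p = 0.1, the smallest that 3 arrays against 3 allow (0.3 after Benjamini-Hochberg adjustment over 6 isozyme pairs). It was -1.43 without BPL 2 and -1.59 within station 1.

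Pfkl encodes the liver type subunit of phosphofructokinase. Its intensities were 8527.2, 6580.8 and 8637.6 on the BPH arrays and 9665.3, 17601.1 and 9354.3 on the BPL arrays. The strains did not overlap, but BPL 1 and BPL 3 stood close above the BPH arrays. The log2 difference was -0.57 (SE 0.24, 95% interval -1.11 to -0.03, limma adjusted p = 0.236) and -0.28 without BPL 2. Against Pfkm, the muscle type subunit, the log2 ratio of Pfkl was 0.75 ± 0.15 in BPH and 1.15 ± 0.16 in BPL (SD, n = 3 each), a difference of -0.40 without overlap (exact permutation p = 0.1, adjusted p = 0.3). Against Pfkp, the platelet type, the ratio differed by -0.19 (exact permutation p = 0.7, adjusted p = 1).

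Aldoa, aldolase A, cleaves fructose bisphosphate into triose phosphates and is the main aldolase of muscle. Its 2 probe sets carry the suffix f, which the maker gives to sets that can also read related sequences. Set 160090_f_at had 65058.4, 55790.9 and 50244.6 in BPH and 64629.8, 107321.9 and 66319.6 in BPL. The strains overlapped, since BPH 1 exceeded BPL 1, and BPL 2 stood far above the rest. The log2 difference was -0.44 (SE 0.21, 95% interval -0.92 to 0.03, limma adjusted p = 0.286), and -0.38 (SE 0.19) for the other set, 161889_f_at. Without BPL 2 these were -0.21 and -0.18. The ratio of Aldoa to Aldoc, the brain type aldolase, differed by -0.49 with overlap (exact permutation p = 1, adjusted p = 1) and by 0.23 without BPL 2.

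Triose phosphate isomerase, Tpi1, interconverts the triose phosphates and showed no detectable difference. Its intensity averaged 25549 ± 2221 in BPH and 25474 ± 963.1 in BPL (SD, n = 3 each). The log2 difference of 0.00 had a 95% interval of -0.26 to 0.26 (limma adjusted p = 0.996), and its sign turned in 6 of 18 alternatives. Tpi1 was also the member least moved by BPL 2, which stood 0.02 above the mean of BPL 1 and BPL 3 on the log2 scale.

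Pgk1, phosphoglycerate kinase, makes the first ATP of the pathway. It had 13567.5, 11125.0 and 12308.2 in BPH and 13908.8, 17414.2 and 12930.3 in BPL, with overlap. The log2 difference was -0.25 (SE 0.14, 95% interval -0.58 to 0.08, limma adjusted p = 0.376), and -0.13 without BPL 2.

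Pkm, the pyruvate kinase of most tissues outside liver and red cells, was read by 2 probe sets. The sources do not state which of the splice forms M1 and M2 each of them reads. Set 96066_s_at had 27455.1, 20736.2 and 21110.4 in BPH and 28562.1, 44480.8 and 35577.1 in BPL. The strains did not overlap, although BPH 1 and BPL 1 were close. The log2 difference was -0.64 (SE 0.18, 95% interval -1.05 to -0.22, limma adjusted p = 0.104), the smallest p among the members after Hk2. Set 162032_f_at differed by -0.48 (SE 0.19, limma adjusted p = 0.206) with overlap. Without BPL 2 the differences were -0.48 and -0.29. The ratio of Pkm to Pklr, the liver and red cell form, differed by -0.997 with overlap (exact permutation p = 0.2, adjusted p = 0.4).

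Ldha encodes the A subunit of lactate dehydrogenase, the form typical of tissues that release lactate. Its intensities were 20411.1, 14177.2 and 15199.4 on the BPH arrays and 22929.4, 51661.4 and 23070.8 on the BPL arrays. All BPH arrays lay below all BPL arrays, and BPL 2 stood far above the other BPL arrays. The log2 difference was -0.88 (SE 0.30, 95% interval -1.56 to -0.20, limma adjusted p = 0.159), and -0.49 without BPL 2. With BPH 1 and BPL 2 both left out it was -0.65 and passed the test (limma adjusted p = 0.044), a setting chosen after seeing the data. Ldhb, the B subunit, was high on BPL 1 and BPL 2 (7245.8 and 9259.1) but not on BPL 3 (3318.4), against 3578.9, 3258.4 and 3228.7 in BPH. Its log2 difference was -0.85 (SE 0.32, limma adjusted p = 0.192), and the ratio of Ldha to Ldhb differed by -0.02 (exact permutation p = 1, adjusted p = 1).

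The upstream windows of Ldha and Pgk1 are shown because, with Hk2, they hold more than 1 ACGTG site, again in capitals.
Ldha upstream start (chr7:46845554-46845803, plus strand): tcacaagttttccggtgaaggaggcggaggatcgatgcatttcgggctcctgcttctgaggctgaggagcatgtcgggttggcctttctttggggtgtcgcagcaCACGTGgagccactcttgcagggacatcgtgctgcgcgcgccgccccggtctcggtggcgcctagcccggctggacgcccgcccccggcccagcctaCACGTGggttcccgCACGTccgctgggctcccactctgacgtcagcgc
Pgk1 (chrX:106186850-106187099, plus strand): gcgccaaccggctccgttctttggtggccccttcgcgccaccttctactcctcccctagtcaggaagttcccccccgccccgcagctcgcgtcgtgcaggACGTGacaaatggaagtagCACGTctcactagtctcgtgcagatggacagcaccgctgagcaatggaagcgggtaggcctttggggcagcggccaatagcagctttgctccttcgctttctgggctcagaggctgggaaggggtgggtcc
Ldha held 3 sites, 2 of them within the palindrome CACGTG, and Pgk1 held 2. The nearest began 34 bases before the Ldha start and 131 bases before that of Pgk1. Of the 10 listed genes, 5 had ACGTG in at least 1 window, against 18.5% of 27025 genes in the table. They were Hk2, Aldoa, Pgk1, Pkm and Ldha, of which only Hk2 passed the test between strains. Counted by window, 6 of the 17 windows of the listed genes (35.3%) held ACGTG, against 16.6% of all windows. Overlapping windows of Aldoa share a site, and the downstream Ldha window, not shown, held none. No relation between these letters and the strain difference was tested. For GCGTG the count was 4 of 10 genes, against 30.9%.

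**Figure D2:**
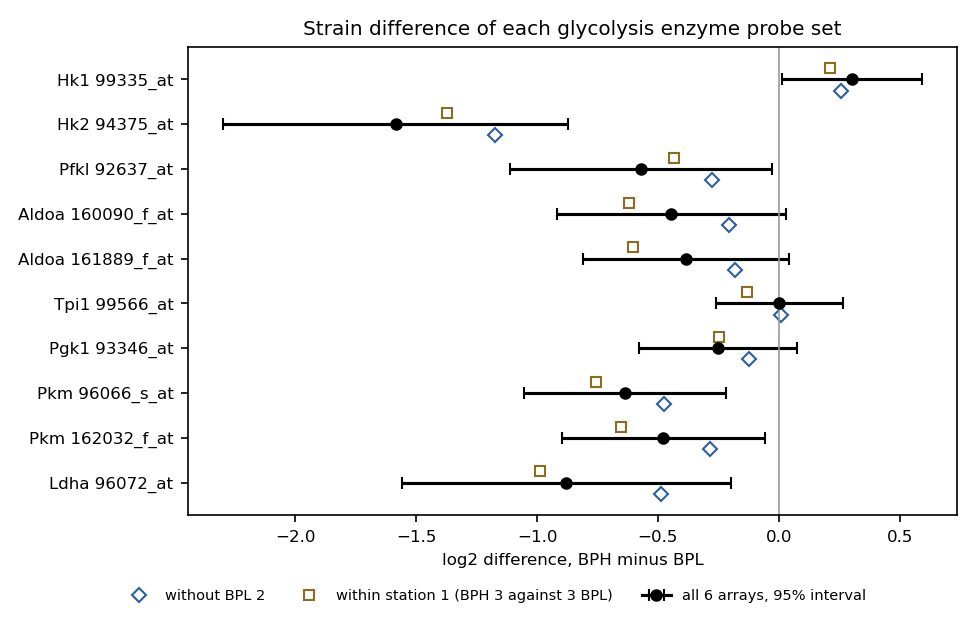
Log2 difference, BPH minus BPL, of each tested member probe set with its 95% interval (black), without BPL 2 (blue diamonds) and within station 1, where BPH 3 alone faces 3 BPL arrays (brown squares). Hk2 lies farthest from 0 at -1.58, Hk1 is the member with an interval wholly above 0, and leaving out BPL 2 brings the negative differences nearer to 0.

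In all, 4 of the 10 tested probe sets had every BPH array below every BPL array, those of Hk2, Pfkl and Ldha and 1 of Pkm. Among all tested probe sets that separation held for 11.6%. The direction of the 8 negative probe sets and of Hk1 was kept under each of the 18 alternatives. Many of these could not have turned it. The lower floor, the filters, the variance models and the replicate block left these differences as they were. Where the strains do not overlap, leaving out arrays cannot turn the sign. Both Aldoa sets and both Pkm sets gave the same direction.

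BPL 2 stood apart from the other arrays of its strain. On the log2 scale BPL 2 stood above the mean of BPL 1 and BPL 3 by 1.23 for Hk2, 1.17 for Ldha, 0.89 for Pfkl, 0.71 for Aldoa, 0.48 for Pkm and 0.38 for Pgk1. For Hk1 it stood at -0.14. The median of these gaps was 0.60 over the 8 genes and -0.05 over all tested genes. BPL 2 was the highest of the 6 arrays for 6 of the 8 genes, against 20.7% of all tested genes. BPH 1 stood above the other BPH arrays by a median of 0.23, with Ldha at 0.48 and Pkm at 0.39.

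Markers of other tissues set those arrays apart too. In bulk tissue, fewer cells of a type and less RNA per cell cannot be told apart. The mean log2 intensity of 14 skeletal muscle markers was 13.32, 10.96 and 9.75 on BPH 1, 2 and 3, and 9.69, 13.43 and 10.14 on BPL 1, 2 and 3. Without BPH 1 and BPL 2, the arrays highest for these markers, the Hk2 difference was -1.21 (limma adjusted p = 0.0326), a setting chosen after seeing the data. Of 5 brown fat markers the mean was 12.87, 12.02 and 12.55 in BPH and between 13.44 and 14.65 in BPL, so the strains did not overlap. The log2 difference was negative for all 5 (median -1.47). Ucp1, the uncoupling protein of brown fat, was the 1 called, at -2.68 (SE 0.41, limma adjusted p = 0.013), where 2.48% of all tested genes were called. It was called in 12 of 18 alternatives, with an adjusted p of at most 0.226. Dio2 overlapped between strains, and on BPL 2 it had 683.0, below 718.8 on BPH 1 and 707.2 on BPH 3. The summed intensity of the 5 markers ran from 37050 to 64244 in BPH and from 100328 to 292293 in BPL. No array had Ucp1 at or under the floor. The part of muscle and brown fat transcripts in the Hk2 difference was not tested.

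The gland's own markers were present on every array. The mean log2 intensity of 7 cortex markers ran from 15.96 to 16.17 in BPH and from 15.88 to 16.10 in BPL. That of 8 chromaffin markers ran from 14.35 to 14.65 in BPH and from 13.33 to 14.52 in BPL, lowest on BPL 2. All 8 chromaffin differences were positive with a median of 0.69, where 3044 of 5555 tested genes were positive. At an unadjusted p under 0.05 (limma) 5 of the 8 were higher, as were 621 of all tested genes. Penk was the 1 called, at 0.61 (limma adjusted p = 0.0476). The part of chromaffin transcripts in the members' differences was not tested. White and brown adipocyte genes (9 markers, median -0.30) had 1 called member, the lipase gene Lipe at -1.25 (SE 0.25, limma adjusted p = 0.0375), which was called in 8 of 18 alternatives. Retn, the adipokine resistin, lay the other way at 0.58 (limma adjusted p = 0.111), with all BPH arrays higher. Pparg and Slc2a4 differed by -0.91 and -0.67, each with all BPH arrays lower, and were not called. The fat cell genes Fabp4, Cd36, Lpl, Lep and Adipoq overlapped between strains, with differences of -0.37, -0.30, -0.21, -0.13 and -0.09. The 6 kidney markers on the array did not pass the filter.

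**Figure D3:**
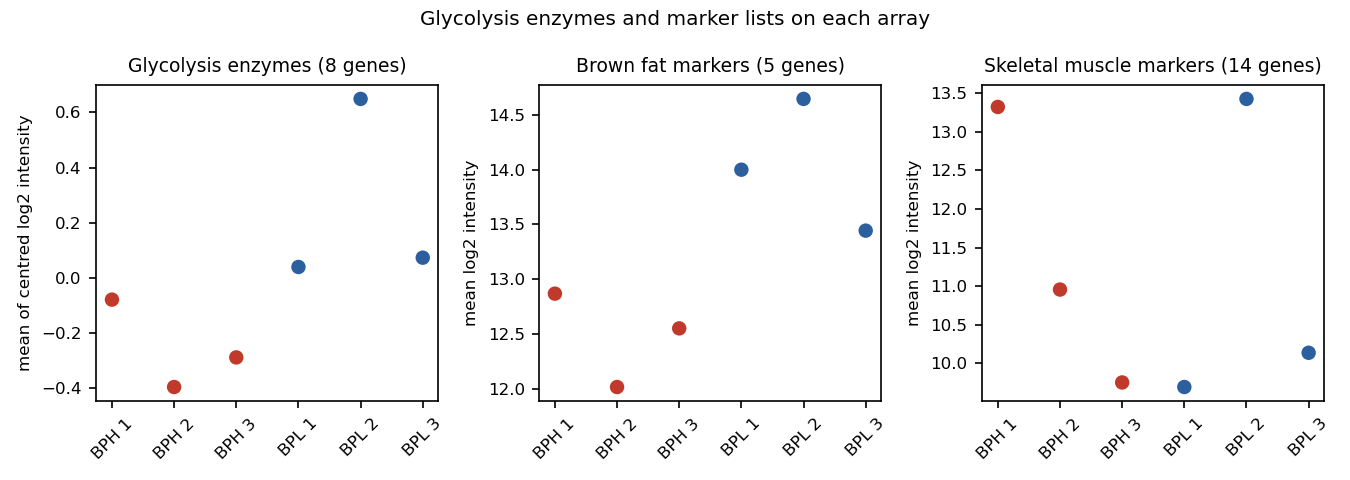
One point per array, BPH in red and BPL in blue: mean of the 8 member genes after centring each gene (left), mean log2 intensity of 5 brown fat markers (middle) and of 14 skeletal muscle markers (right). BPL 2 is the highest array in each panel, while BPH 1 comes near it only for the muscle markers.

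**Figure D4:**
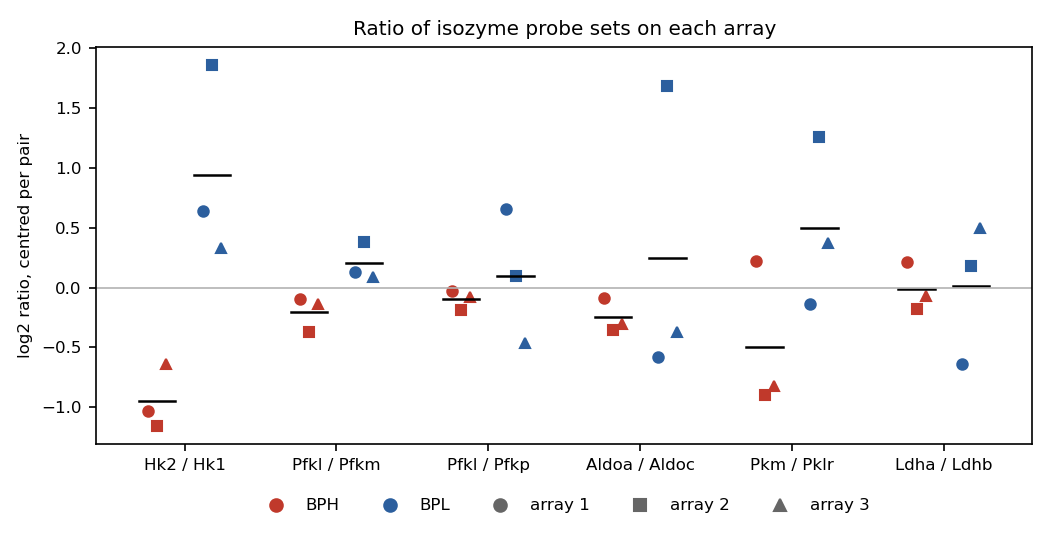
Log2 ratio of 2 isozyme probe sets on each array, centred on the mean of both strains for each pair, with a black line for each strain's mean of 3 arrays. Hk2 over Hk1 and Pfkl over Pfkm have all BPH arrays below all BPL arrays, and the other 4 pairs overlap.

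Of 10 isozyme pairs listed, 6 had both genes among those tested. Beside the hexokinases and Pfkl over Pfkm, the remaining 4 overlapped between strains, and no pair passed after adjustment.

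Glycolysis enzymes outside the list were centred near 0. The 9 tested genes did not include Gapdh, and their differences ran from -0.85 for Ldhb to 0.37. Of these genes 0 were called, with Ldhb the 1 at an unadjusted p under 0.05 (limma), where 459 of 5555 tested genes were lower. A positive difference was found for 5 of the 9, and their median was 0.04. Over the alternatives that median lay between -0.15 and 0.11, and it turned sign in 6 of 18, among them within station 1 and quantile normalization. Whether the listed members differ from these genes was not tested. Pgam1, phosphoglycerate mutase, averaged 25039 ± 659.9 in BPH and 28678 ± 1439 in BPL (SD, n = 3 each), a log2 difference of -0.19 (limma adjusted p = 0.371) without overlap. Pklr differed by 0.36 (SE 0.26, limma adjusted p = 0.482).

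Glucose transporters and switches around glycolysis were likewise uncalled. Among 4 transporters and 8 switches tested, 3 genes were lower and 1 higher at an unadjusted p under 0.05 (limma). Of all 5555 tested genes, 459 were lower and 621 higher at that p. Slc2a4, the insulin-responsive glucose transporter of muscle and fat, had 2240.6, 1956.5 and 1840.9 in BPH and 2540.6, 4965.4 and 2554.2 in BPL. It differed by -0.67 (SE 0.25, limma adjusted p = 0.2), again highest on BPL 2. Slc2a3, a glucose transporter typical of neurons, had a difference of 0.62 (SE 0.52, adjusted p = 0.543) and Slc2a8 one of -0.15. Of the 4 tested transporters 2 were positive and 2 negative, with a median of -0.07. Pdk4 and Pdk3 encode kinases that shut off pyruvate dehydrogenase. Pdk4 differed by -1.13 (SE 0.33, limma adjusted p = 0.106) and Pdk3 by 0.65 (SE 0.22, adjusted p = 0.148), each without overlap. Pcx, pyruvate carboxylase, differed by -0.55 (SE 0.19, adjusted p = 0.168). The median over 8 switches was -0.22, with 7 negative.

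Among 9 glycogen and hexose feeder genes 0 were called, with 2 lower and 1 higher at an unadjusted p under 0.05 (limma), and the median was -0.17. At that p 459 of all 5555 tested genes were lower and 621 higher. Gbe1, the glycogen branching enzyme, differed by -1.17 (SE 0.31, limma adjusted p = 0.088), and Gys1, a glycogen synthase, by -0.53 (SE 0.16, adjusted p = 0.123). Pygb, the brain form of glycogen phosphorylase, differed by 1.16 (SE 0.34, adjusted p = 0.112). It had 2030.0, 1743.9 and 2330.7 in BPH and 507.5, 1383.1 and 1058.2 in BPL, with no overlap.

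Side routes from glycolysis held 3 called genes, all lower in BPH, where 0.918% of tested genes were called lower. Each was highest on BPL 2, as were the means of the brown fat and skeletal muscle markers. The part of fat and muscle transcripts in these calls was not tested. Tkt, the transketolase of the pentose phosphate path, had 24260.1, 16870.8 and 18846.7 in BPH and 55502.8, 84307.2 and 44214.4 in BPL, and differed by -1.58 (SE 0.24, limma adjusted p = 0.0121). It was 1 of 7 pentose phosphate genes called. The differences of all 7 were negative (median -0.29), Pgd at -0.46 (adjusted p = 0.0732) and Taldo1 at -0.35 (adjusted p = 0.242). Tkt was called in 13 of 18 alternatives, and its difference lay between -1.79 and -1.33 over all 18. Its adjusted p was 0.0639 without BPH 2, 0.075 without BPH 3 and 0.13 with no filter. The station block and station 1 alone, which rest on 1 BPH array there, gave -1.65 without a call.

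Of 6 genes of the glycerol phosphate and malate shuttles, which carry the NADH of glycolysis into mitochondria, 2 were called and all 6 were negative, with a median of -0.53. Gpd1, the cytosolic glycerol phosphate dehydrogenase, had 19507.8, 11761.7 and 11396.3 in BPH and 35296.5, 95493.8 and 41178.0 in BPL, a log2 difference of -1.91 (SE 0.36, limma adjusted p = 0.0333). Gpd2, its mitochondrial partner, differed by -1.94 (SE 0.35, adjusted p = 0.0297). Within station 1, with its 1 BPH array, the differences were -2.18 for Gpd1 and -1.93 for Gpd2. Gpd1 was called in 12 of 18 alternatives and Gpd2 in 10. Leaving out 1 array ended the call for Gpd1 without BPH 2 (0.119) or BPH 3 (0.148). For Gpd2 it ended the call without BPH 1 (0.0678), BPH 2 (0.11), BPH 3 (0.124) or BPL 1 (0.0759). Mdh2, the mitochondrial malate dehydrogenase, differed by -0.75 (SE 0.19, adjusted p = 0.0763).

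The genes most like the members in pattern were Ndufa6 (r = 0.994), Ndufa5 (0.991), Scarb2 (0.991), Ddt (0.991) and Htt (0.990), as Pearson's r with the members' mean over the 6 arrays. Hk1 (r = -0.69) and Tpi1 (0.17) did not follow the mean of the other members, while the remaining members had r from 0.90 to 0.99. With so few arrays, 4.52% of 5547 other genes had an r over 0.9, and the arrays share the high value of BPL 2. Ndufa6 and Ndufa5 encode accessory subunits of respiratory complex I. The log2 differences of these 5 genes lay between -0.54 for Ndufa5 and -0.21 for Ndufa6, and none was called (limma adjusted p between 0.206 and 0.392).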

How the data were processed

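The authors deposited 1 linear intensity for each probe set on an array (software: not given in the sources used here). Trimmed means (2% cut from both tails) were 2501.3 to 2501.5, which shows scaling by the authors, and none was added. Values under the 20th percentile of the table (201.3) were set to it, and log2 was taken, which understates changes of dim genes. The 66 control probe sets, and those whose mean log2 lay under that of the 40th percentile (668.1), were left out. Differences were fitted over all 7293 probe sets, or the brightest of each of 5555 genes, with lmFit and eBayes with a trend (limma 3.58.1, R 4.3.3), two-sided, with Benjamini-Hochberg adjustment and a threshold of 0.05. The code was tested on simulated data.

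The platform annotation named a single gene on 10855 probe sets, more than 1 on 396 and no gene on 1237. Of the first, 10839 were matched to RefSeq gene numbers for current symbols. Gene lists are described by counts and medians without a list test. Eno3, Pgam2 and Pygm are in an enzyme and the muscle list, Bpgm in the red cell list and Slc2a4 in the adipocyte list. Red cell (median 0.03), macrophage (0.01) and smooth muscle markers (-0.03) had 0 called, with 0, 4 and 2 at an unadjusted p under 0.05 (limma). Of all 5555 tested genes, 459 were lower and 621 higher at that p. Muscle markers (0.27) had 0 called and 0 at that p, cortex markers (0.03) 0 and 0, and chromaffin markers (0.69) 1 and 5. The called one was Penk (0.61, adjusted p = 0.0476), called in 6 of 18 alternatives. The named genes are the members, the called and up to 3 of smallest p of each list, and the isozyme pairs. Also named are the 5 most alike in pattern and all 9 adipocyte markers. Members and lists were chosen with earlier results of these data known. Replicate numbers did not pair the arrays: deviations of equal numbers correlated at -0.219, -0.084 and 0.012. Alternatives were other scaling, floors, filters, variance models, blocks, thresholds and arrays left out.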

Additional observations from a re-analysis of the deposited data

How the results depend on the processing

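With no detection call, background is unknown, and 3 arrays a strain limit precision. Probe sets called (184) and genes called (138) came to 52 and 48 with no filter, 83 and 65 without the trend, 18 and 12 under the station block, 7 and 7 inside station 1 alone, and 48 and 39 at an adjusted p under 0.01. Leaving out 1 array gave 42 to 361 probe sets and 32 to 298 genes. Member calls (1) were 0 with no filter, without the trend, with the station block, within station 1 and at 0.01, 0 to 1 with 1 array left out, and 2 (Hk2 and Ldha) without BPH 1 and BPL 2. Hk2 was -1.58 with no filter (limma adjusted p = 0.229) and without the trend (0.092), -1.37 with the station block and within station 1 (1 BPH array), and -1.84 to -1.17 with 1 array left out. It was called in 10 of 18 alternatives, and over all 18 the adjusted p ran from 0.0159 to 0.559. The causes were not tested. With the replicate block 124 probe sets and 96 genes were called, with Hk2 at an adjusted p of 0.0494, and the other members' sides of the threshold did not change. The median of the members lay between -0.64 and -0.24. Some signs turned. Tpi1 was -0.13 with the station block and within station 1, -0.058 to 0.068 with 1 array left out and -0.051 without BPH 1 and BPL 2. Slc2a3 (0.62) was -0.15 and Pfkm 0.032 without those 2 arrays, and Pfkm ran from -0.27 to 0.037 with 1 left out. Aldoc was -0.075 with the station block and within station 1, -0.44 to 0.33 with 1 left out and -0.46 without both.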
